A study of Mus musculus with 24 samples.

Results

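The genes described here are 10 p53 targets and Gadd45 genes, chosen by name: Cdkn1a, Mdm2, Ccng1, Bax, Bbc3, Gadd45a, Gadd45b, Gadd45g, Sesn1 and Trp53inp1. They were matched by gene symbol to the platform annotation of an Affymetrix mouse expression array. Of the 10 genes, 9 had a probe set that carried their symbol alone, and they made up 9 of the 18193 genes measured. They had 20 probe sets in all, of 34945 with 1 gene symbol. Bax, a pore-forming killer protein of mitochondria, was not analysed here. Each gene was read from its brightest probe set, the one with the highest mean over all arrays, and its other probe sets are given beside it.

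p53 is a transcription factor that is stabilised by DNA damage and other stress, and Mdm2 encodes the ubiquitin ligase that marks it for degradation, so that a p53 target limits p53 itself. Other targets halt the cell cycle (Cdkn1a), promote cell death (Bax, Bbc3) or temper oxidative stress and growth signalling (Sesn1, Trp53inp1). The Gadd45 genes encode small stress proteins that bind cell cycle and stress kinases, and of these Gadd45a is the classical p53 target, while Gadd45b and Gadd45g are also known as targets of cytokine signalling.

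Livers came from 24 male BALB/c mice, 1 array per mouse, with 6 mice on each of 4 diets. Controls were fed AIN93G, a purified diet for rodents, while the remaining mice were fed AIN93G with 0.1%, 0.5% or 1.0% of quercetin, a plant flavonol. Every group was bought at 6 weeks of age, ate nonpurified feed before the switch, lived with the dark phase in daytime hours and stayed on its diet for 14 days. Each cage held 3 mice, and no cage numbers were used here. Cage and diet cannot be told apart. The question was whether these genes differ in the liver between the diets.

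Levels below are log2(intensity + 1) after quantile normalization, in log2 units, and a fold on this scale understates the change of a dim gene. The deposited intensities had array medians of 4.78 to 7.58. On the first principal component of all genes, which held 9.15% of the variance, 4 arrays stood apart with scores of 45.4 to 64.2, against -20.6 to 5.99 in the other 20 arrays. They were 0.5% replicates 4 and 6 and 1.0% replicates 4 and 5, so values are given with and without them where a result rests on them. The summed level of 9 hepatocyte markers was 47830 to 52390 over all arrays, so the arrays read as liver. Because whole liver was sampled, fewer cells of a type and less RNA per cell cannot be told apart.

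None of the 9 measured genes differed between the diets by limma at a Benjamini-Hochberg adjusted p of 0.05 over all genes. At 0.1% quercetin against control 0 of 9 passed, where 0% of all genes passed, and 0 of 9 had an unadjusted p under 0.05, against 5.11% of all genes. At 0.5% against control 0 of 9 passed, against 0.0165% of all genes, and Sesn1 and Gadd45g had an unadjusted p under 0.05, which 7.65% of all genes had. At 1.0% against control 0 of 9 passed, against 0.022% of all genes, and 0 of 9 had an unadjusted p under 0.05, against 8.92%. Read against these shares, counts of 0 among 9 genes were near the background. The median difference of the 9 genes from control was 0.20 at 0.1%, 0.24 at 0.5% and 0.09 at 1.0%, where the medians of all genes were 0.01, -0.02 and -0.01.

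**Figure D1:**
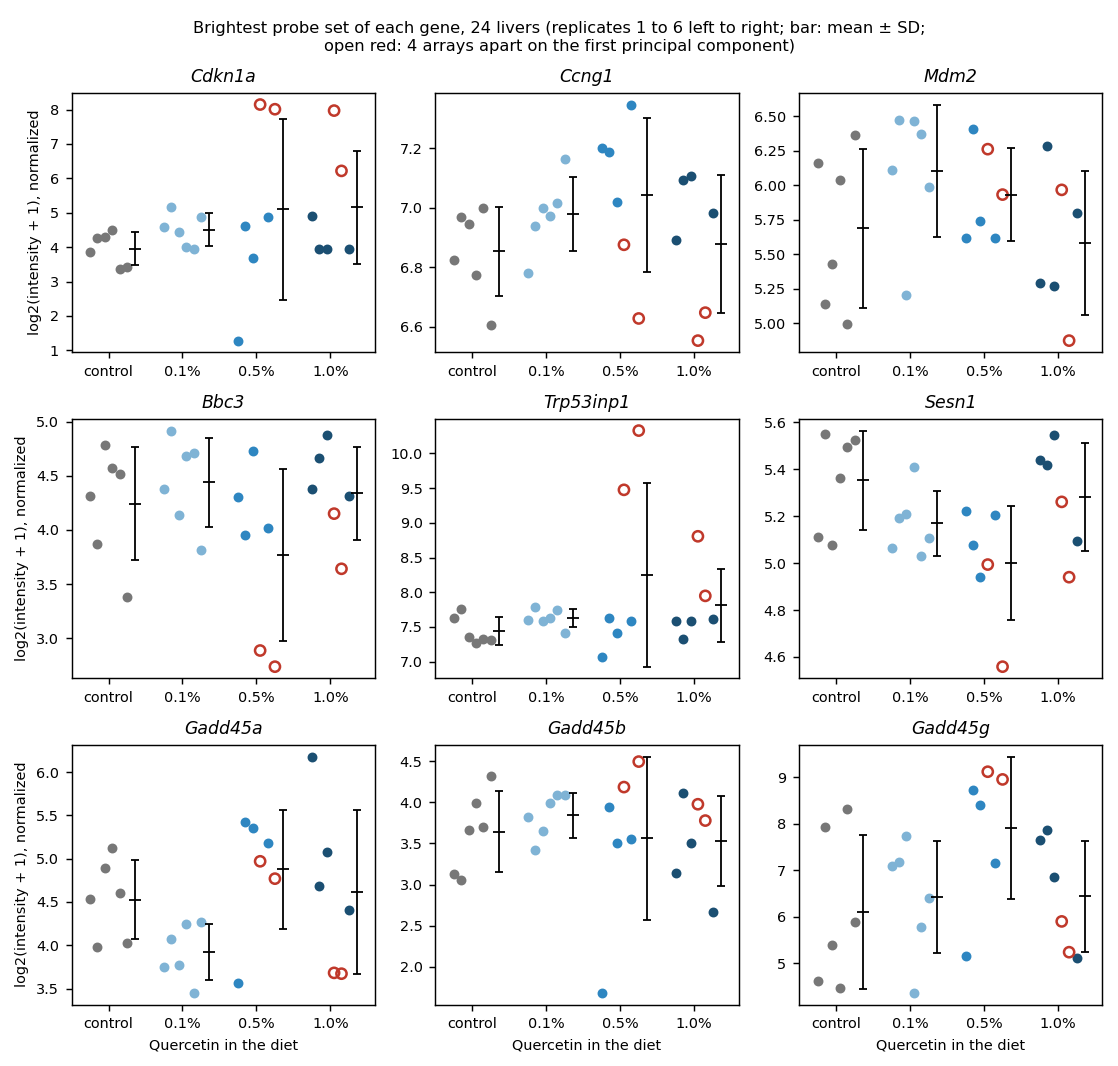
Normalized log2(intensity + 1) of the brightest probe set of each of the 9 genes, 1 point per liver, in the diet groups from control to 1.0% quercetin, with the mean ± SD of each group (n = 6) as a bar beside the points. Open red points are the 4 arrays apart on the first principal component, where Cdkn1a lay at 6.22 to 8.15 against 1.28 to 5.18 in the other 20 livers.

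Promoter windows show the sequence before the starts of these genes. RefSeq windows of build GRCm38.p6 covered 250 bases before to 50 after a transcription start, and 13 windows were matched to 9 of the 10 genes, with none used for Trp53inp1. The palindromic p53 half-site consensus, matched exactly, lay in 6 of the 13 windows, and 8.36% of 32851 windows of the same length held it. The letters GGGCGG, on either strand, lay in 10 of 13 windows against 35.7% of all windows, CCAAT in 8 against 37.4%, TATAAA in 2 against 13.6%, CACGTG in 4 against 7.15% and GTAAACA in 3 against 3.65%. The windows were not all separate sequences, since those of Bbc3 at chr7:16310011-16310310 and chr7:16310181-16310480 share bases. By gene, the half-site lay in 6 of 9, GGGCGG in 7, CCAAT in 7, TATAAA in 2, CACGTG in 4 and GTAAACA in 3. The genes were chosen by name as p53 targets and Gadd45 genes, so the half-site count is a description. None of these motifs contains another, and a match describes letters only. Cdkn1a and Gadd45b are printed as genes with a probe set that was high in all 4 livers, and Mdm2 and Ccng1 as p53 targets that were not, each 5′ to 3′ on its own strand, with p53 half-sites and TATAAA in capitals.
Cdkn1a, upstream window (chr17:29090729-29091028, plus strand): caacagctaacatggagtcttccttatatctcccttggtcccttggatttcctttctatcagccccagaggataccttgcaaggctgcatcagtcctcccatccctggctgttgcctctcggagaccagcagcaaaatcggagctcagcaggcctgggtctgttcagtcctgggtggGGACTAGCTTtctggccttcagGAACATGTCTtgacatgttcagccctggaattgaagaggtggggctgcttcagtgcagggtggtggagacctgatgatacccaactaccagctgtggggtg
Gadd45b (chr10:80929841-80930140, plus strand): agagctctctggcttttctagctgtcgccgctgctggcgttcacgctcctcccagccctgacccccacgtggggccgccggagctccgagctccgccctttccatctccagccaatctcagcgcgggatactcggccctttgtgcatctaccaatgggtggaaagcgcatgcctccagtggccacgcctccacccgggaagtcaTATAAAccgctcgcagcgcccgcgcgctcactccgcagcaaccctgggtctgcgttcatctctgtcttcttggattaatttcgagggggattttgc
Mdm2 (chr10:117710709-117711008, minus strand): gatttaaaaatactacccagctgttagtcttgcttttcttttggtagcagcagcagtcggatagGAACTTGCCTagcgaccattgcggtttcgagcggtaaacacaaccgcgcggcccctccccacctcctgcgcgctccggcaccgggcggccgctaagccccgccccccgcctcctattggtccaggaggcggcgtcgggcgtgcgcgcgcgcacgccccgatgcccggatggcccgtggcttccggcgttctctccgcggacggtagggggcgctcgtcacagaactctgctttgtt
Ccng1 (chr11:40755237-40755536, minus strand): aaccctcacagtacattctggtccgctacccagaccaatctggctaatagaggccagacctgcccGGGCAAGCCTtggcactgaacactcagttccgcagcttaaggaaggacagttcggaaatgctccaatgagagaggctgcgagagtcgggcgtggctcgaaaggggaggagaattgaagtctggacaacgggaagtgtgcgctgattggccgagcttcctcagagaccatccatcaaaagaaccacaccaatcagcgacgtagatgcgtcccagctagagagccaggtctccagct
In Cdkn1a the first bases of the half-sites lay at -73 and -51 from the start of this window's transcript, and the window of its other start, 2790 bases downstream, held none. In Mdm2 the half-site began at -186 and in Ccng1 at -185. Gadd45b held no half-site and had TATAAA at -46.

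Cdkn1a (chr17:29090979-29100722, GRCm38.p6) encodes p21, the inhibitor of cyclin-dependent kinases that carries much of the p53 cell cycle arrest. Its level ran from 3.37 to 4.48 with a median of 4.07 in control livers, from 3.94 to 5.18 with a median of 4.52 at 0.1%, from 1.28 to 8.15 with a median of 4.74 at 0.5%, and from 3.94 to 7.97 with a median of 4.43 at 1.0%. All groups overlapped, and the spread within the 0.5% and 1.0% groups was far wider than within the others. The levels in the 4 livers apart were 8.15 and 8.01 in 0.5% replicates 4 and 6 and 7.97 and 6.22 in 1.0% replicates 4 and 5. Every other liver lay at or below 5.18. The deposited intensities of the same 4 livers were 307, 258, 233 and 85.1, against 1.5 to 38.3 in the other 20.

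Cdkn1a averaged 5.10 ± 2.63 at 0.5% and 5.16 ± 1.64 at 1.0%, against 3.96 ± 0.47 in controls (SD, n = 6 each). The difference from control was 1.14 at 0.5% and 1.20 at 1.0% (SE 0.88 for both), and 0.55 at 0.1%, where the dimmer probe set differed by -0.57 and so had the opposite sign. Neither passed by limma (adjusted p = 0.785 at 0.5% and 0.741 at 1.0%), and the 95% interval at 1.0% ran from -0.62 to 3.02. Without the 4 arrays apart the difference was -0.34 (SE 0.51) at 0.5% and 0.23 (SE 0.51) at 1.0%. The 0.5% livers left were at 1.28, 4.61, 3.675 and 4.88, against the control mean of 3.96. The 1.28, of replicate 1, came from a deposited intensity of 1.47, below that array's median of 6.345. The sign at 0.5% thus depended on which livers were kept, this dim value among them. The dimmer Cdkn1a probe set, brighter on average than 37.4% of probe sets, was at 5.24 and 5.38 in 0.5% replicates 4 and 6 and 5.39 and 4.42 in 1.0% replicates 4 and 5, and at 3.79 or below in the other 20 livers.

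Trp53inp1 (chr4:11156441-11174379) encodes a nuclear and autophagy protein that is induced by p53 and supports its stress programme. Its level ran from 7.27 to 7.76 with a median of 7.35 in control livers, from 7.41 to 7.78 with a median of 7.61 at 0.1%, from 7.07 to 10.33 with a median of 7.61 at 0.5%, and from 7.33 to 8.81 with a median of 7.60 at 1.0%. The highest values were 9.47 and 10.33 in 0.5% replicates 4 and 6 and 8.81 and 7.95 in 1.0% replicates 4 and 5, the same livers as for Cdkn1a, and the other 20 ended at 7.78. Trp53inp1 averaged 8.25 ± 1.32 at 0.5% and 7.44 ± 0.20 in controls (SD, n = 6 each), a difference of 0.81 (SE 0.40) that did not pass by limma (adjusted p = 0.657). At 1.0% the difference was 0.37 (adjusted p = 0.845). Without the 4 arrays apart it was -0.02 at 0.5% and 0.09 at 1.0% (SE 0.13 for both). The second probe set was at 6.58 and 7.04 in the 0.5% livers apart and 5.46 and 5.25 in the 1.0% livers apart, against 5.11 or less elsewhere, so it had the same order.

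Mdm2 (chr10:117688875-117710758), which ends the p53 response, showed no such separation. Its level ran from 4.99 to 6.37 with a median of 5.73 in control livers, from 5.21 to 6.48 with a median of 6.24 at 0.1%, from 5.61 to 6.41 with a median of 5.84 at 0.5%, and from 4.87 to 6.28 with a median of 5.55 at 1.0%. All groups overlapped. The difference from control was 0.42 at 0.1%, 0.24 at 0.5% and -0.11 at 1.0% (SE 0.28 for all), and the interval at 1.0% ran from -0.68 to 0.47. In the 4 livers apart Mdm2 lay at 4.87 to 6.26, within or below the 4.99 to 6.48 of the other 20. Its other probe sets had differences at 1.0% of -0.02 and 0.51, and 0 passed.

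Ccng1 (chr11:40748552-40755309) encodes cyclin G1, which recruits a phosphatase to Mdm2, and was the least variable of these genes within controls. Its level ran from 6.61 to 7.0 with a median of 6.89 in control livers, from 6.78 to 7.16 with a median of 6.99 at 0.1%, from 6.63 to 7.35 with a median of 7.10 at 0.5%, and from 6.55 to 7.11 with a median of 6.94 at 1.0%. The difference from control was 0.13, 0.19 and 0.03 at 0.1%, 0.5% and 1.0% (SE 0.12 for all), and the interval at 1.0% ran from -0.23 to 0.28. Without the 4 arrays apart it was 0.34 at 0.5% (SE 0.10, unadjusted p = 0.00356, adjusted p = 0.814 by limma) and 0.17 at 1.0% (adjusted p = 0.703). The other 2 probe sets were both lower than control at all 3 doses, by values from -0.16 to -0.04, so the probe sets disagreed in sign and none passed. In the 4 livers apart Ccng1 lay at 6.55 to 6.88, inside or below the 6.61 to 7.35 of the other 20.

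Bbc3 (chr7:16308398-16318334), which encodes the cell death activator PUMA, ran from 3.39 to 4.78 with a median of 4.41 in control livers, from 3.82 to 4.92 with a median of 4.53 at 0.1%, from 2.74 to 4.73 with a median of 3.99 at 0.5%, and from 3.64 to 4.87 with a median of 4.35 at 1.0%. Its lowest values, 2.89 and 2.74, were in 0.5% replicates 4 and 6. The difference from control was -0.47 at 0.5% (SE 0.31) and 0.10 at 1.0%, and without the 4 arrays apart it was 0.01 at 0.5%. Between doses, Bbc3 averaged 3.77 ± 0.79 at 0.5% and 4.44 ± 0.41 at 0.1% (SD, n = 6 each), a difference of -0.67 (unadjusted p = 0.0443, adjusted p = 0.48 by limma). Without the 4 arrays apart that difference was -0.19 (SE 0.26, adjusted p = 0.95), so most of it rested on them. In that comparison 0 of 9 genes passed, against 0.214% of all genes, and 2 of 9 had an unadjusted p under 0.05, against 10.1%.

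Sesn1 (chr10:41810574-41908436) encodes sestrin 1, which restrains the growth kinase mTORC1 and limits peroxides. Its level ran from 5.08 to 5.55 with a median of 5.43 in control livers, from 5.03 to 5.41 with a median of 5.15 at 0.1%, from 4.56 to 5.22 with a median of 5.03 at 0.5%, and from 4.94 to 5.55 with a median of 5.34 at 1.0%. All 6 livers at 0.5% were below the control mean, though the groups overlapped. Sesn1 averaged 5.00 ± 0.24 at 0.5%, against 5.35 ± 0.21 in controls (SD, n = 6 each), a difference of -0.35 (SE 0.13, unadjusted p = 0.0116, adjusted p = 0.555 by limma). Its brightest probe set was lower, and of the other 3 probe sets 1 was higher at 0.5% by 0.37 and the others differed by -0.10 and -0.02, so the probe sets did not share a direction. At 1.0% the difference from control was -0.07 (SE 0.13), while the other 3 probe sets differed by 0.49, 0.09 and 0.04, and without the 4 arrays apart the brightest was at 0.0218. The 0.49 belonged to a probe set with 6 of 6 livers above the control mean (adjusted p = 0.676 over all probe sets). At 1.0% against 0.5% the brightest probe set differed by 0.28 (adjusted p = 0.778). There 0 of 9 genes passed, against 0.022% of all genes, and 1 of 9 had an unadjusted p under 0.05, against 6.19%. Without the 4 arrays apart the 0.5% difference from control was -0.24 (SE 0.12).

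**Figure D2:**
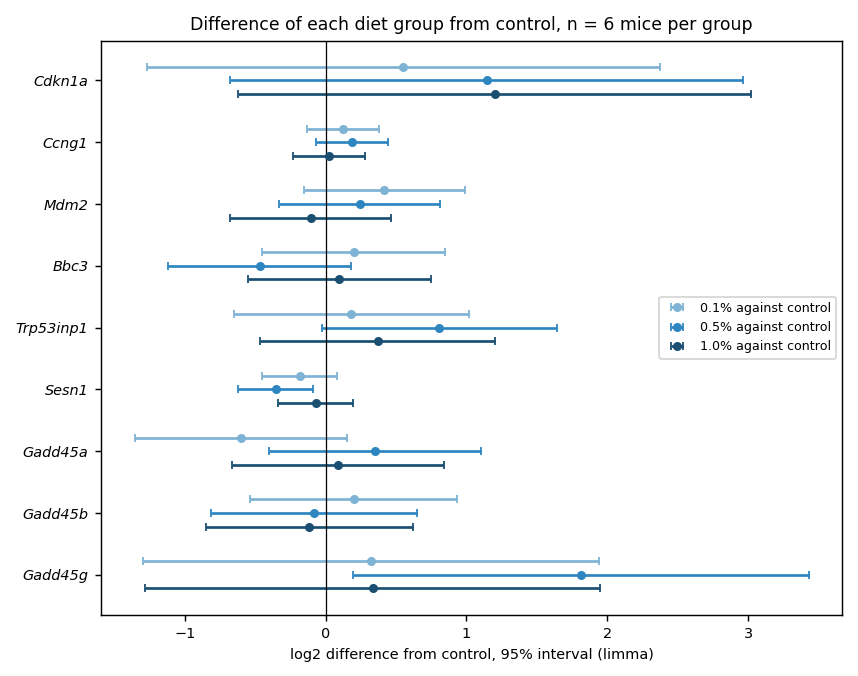
Log2 difference from control of each of the 9 genes at 0.1%, 0.5% and 1.0% quercetin, with the 95% interval of the limma fit as bars, all around a line at 0. Only the Sesn1 and Gadd45g intervals at 0.5% lay off 0, from -0.62 to -0.09 and from 0.20 to 3.43, before adjustment for the number of genes.

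Gadd45a (chr6:67035096-67037407), the p53-induced member of its family, ran from 3.98 to 5.13 with a median of 4.57 in control livers, from 3.45 to 4.27 with a median of 3.92 at 0.1%, from 3.56 to 5.43 with a median of 5.08 at 0.5%, and from 3.67 to 6.18 with a median of 4.55 at 1.0%. At 0.1% 6 of 6 livers were below the control mean, but the groups overlapped. The difference from control was -0.60 at 0.1%, 0.35 at 0.5% and 0.09 at 1.0% (SE 0.36 for all). Gadd45a averaged 4.88 ± 0.69 at 0.5% and 3.93 ± 0.32 at 0.1% (SD, n = 6 each), a difference of 0.95 (SE 0.36, unadjusted p = 0.0155, adjusted p = 0.357 by limma), and it was 0.96 without the 4 arrays apart (adjusted p = 0.58). For 1.0% against 0.1% the difference was 0.69 (adjusted p = 0.572), or 1.16 without the 4 arrays apart (adjusted p = 0.316). In that comparison over all arrays 0 of 9 genes passed, against 0.253% of all genes, and 0 of 9 had an unadjusted p under 0.05, against 9.42%.

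Gadd45b (chr10:80930091-80932204) encodes the NF-kB and TGF-beta induced member, which was dim here, and its probe sets disagreed. The brightest averaged 3.645 over all arrays, close to 3.608 for the next, and it alone gave the gene's value in the main tests. The brightest ran from 3.06 to 4.33 with a median of 3.68 in control livers, from 3.42 to 4.09 with a median of 3.91 at 0.1%, from 1.69 to 4.49 with a median of 3.75 at 0.5%, and from 2.67 to 4.11 with a median of 3.64 at 1.0%. Its differences from control were 0.20, -0.08 and -0.11 at 0.1%, 0.5% and 1.0% (SE 0.35 for all). Without the 4 arrays apart they were -0.47 at 0.5%, with the liver at 1.69 still in, and -0.29 at 1.0% (SE 0.37 for both). The other 2 probe sets separated the 4 livers. One was at 6.82 and 5.70 in 0.5% replicates 4 and 6 and 5.09 and 5.06 in 1.0% replicates 4 and 5, against 4.13 or less in the other 20 livers, and the other at 6.69, 6.25, 5.12 and 4.87 in these livers, against 3.93 or less. Their differences from control were 0.51 and 0.70 at 0.5% and 0.24 and 0.23 at 1.0%, and none passed.

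Gadd45g (chr13:51846675-51848475), a cytokine-induced member, was the most variable of these genes in control livers. Its level ran from 4.47 to 8.32 with a median of 5.64 in control livers, from 4.37 to 7.73 with a median of 6.75 at 0.1%, from 5.15 to 9.12 with a median of 8.56 at 0.5%, and from 5.12 to 7.86 with a median of 6.37 at 1.0%. The groups overlapped throughout. Gadd45g averaged 7.92 ± 1.53 at 0.5%, against 6.10 ± 1.65 in controls (SD, n = 6 each). The difference of 1.81 (SE 0.78) had an unadjusted p of 0.0297 and an adjusted p of 0.6 by limma, and without the 4 arrays apart it was 1.25 (SE 0.89). At 1.0% it was 0.33 (SE 0.78). Of the livers apart, 0.5% replicates 4 and 6 were at 9.12 and 8.95, while 1.0% replicates 4 and 5 were at 5.90 and 5.24.

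The slope over dose, in log2 units per 1% quercetin, passed for 0 of 9 genes, against 0.0989% of all genes, and 0 of 9 had an unadjusted p under 0.05, against 10.9%. It was 1.08 for Cdkn1a (SE 0.76, adjusted p = 0.646 by limma), and between -0.26 and 0.46 for the other 8. With the 4 arrays apart left out, the Cdkn1a slope was -0.13 (SE 0.48). The Trp53inp1 slope, 0.40 over all arrays, was -0.0117 (SE 0.12) there, so both changed sign. The Cdkn1a slope of -0.13 still held the 0.5% liver at 1.28, from a deposited intensity of 1.47. Any difference among the 4 groups passed for 0 of 9, against 0.181% of all genes, and 0 of 9 had an unadjusted p under 0.05, against 9.49%, with Sesn1 lowest at an adjusted p of 0.535. No gene of the 9 had a dose group that did not overlap with control, where 0.39% of all genes did at 0.1%, 0.456% at 0.5% and 0.797% at 1.0%.

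**Figure D3:**
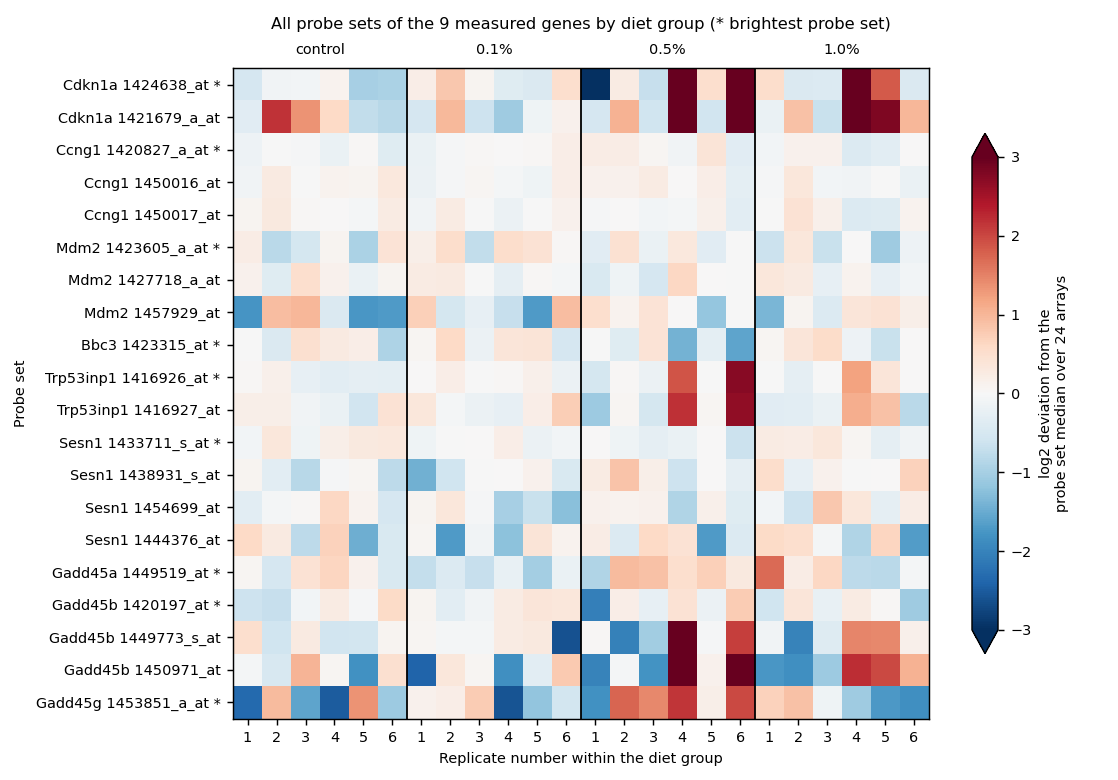
Deviation of each of the 20 probe sets of the 9 genes from its median over the 24 livers, in log2 units, with livers as columns by diet group. Both Cdkn1a and both Trp53inp1 probe sets and 2 of 3 Gadd45b probe sets have their 4 highest values in 0.5% replicates 4 and 6 and 1.0% replicates 4 and 5.

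Over all probe sets, 6 of the 20 had their 4 highest values in the 4 livers apart, which 1.65% of the 34945 probe sets also had (577). Those arrays were picked from all genes, so this is a description and was given no test. Among genes, 1.83% lay above the other 20 livers in all 4, and 2.63% below. The pattern was held by Cdkn1a and Trp53inp1 on both probe sets each and by Gadd45b on 2 of 3, and on no probe set by Mdm2, Ccng1, Bbc3, Gadd45a, Gadd45g or Sesn1. Over the other 20 livers, 36 pairs of genes were correlated and 0 passed by permutation test after Benjamini-Hochberg adjustment, with r from -0.32 to 0.63. The highest, Cdkn1a with Trp53inp1, had r = 0.63 (permutation p = 0.00321, adjusted p = 0.116) and Spearman rho = 0.35 (permutation p = 0.129, adjusted p = 0.958), and r = 0.25 without the 2 livers farthest from the median of Cdkn1a. These values and their test pooled the diets. Taken as deviations from the group means, this pair had r = 0.56. Cdkn1a with Gadd45a was then highest at 0.74, against 0.35 pooled, with both genes lowest of their group in 0.5% replicate 1. The values within groups were given no test.

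A list of other p53 targets gave 33 measured genes of 35. Of these, 0 of 33 lay above the other 20 livers in all 4 livers apart, with Ei24, an autophagy gene, below. Against control 0 of 33 passed in either direction at any dose, and the list's median was 0.08, 0.03 and 0.01 at 0.1%, 0.5% and 1.0%, where all genes had 0.01, -0.02 and -0.01. Fas, the death receptor gene, averaged 0.60 above control at 0.5% (SE 0.19, adjusted p = 0.507), and Plk2, a stress kinase gene, was 0.62 lower (SE 0.22, adjusted p = 0.55). Sesn3, a sestrin paralogue that was also in a list of FOXO and fasting targets, differed by -0.53 at 1.0% (adjusted p = 0.45). Of 16 measured p53 regulators of 17, 0 passed against control at any dose. Hipk2, a kinase that phosphorylates p53, was below the other 20 livers in all 4 livers apart, as was Atr, a DNA damage kinase, and Hipk2 differed from control by -0.31 at 0.5% and -0.39 at 1.0% (adjusted p = 0.481).

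Of the BCL2 family and caspases, 17 of 19 were measured and 0 passed against control. Mcl1 and Bcl2l1, which encode proteins that block cell death, lay above the other 20 livers in all 4 livers apart. Mcl1 was higher than control by 0.66 at 0.5% (adjusted p = 0.507) and 0.55 at 1.0% (adjusted p = 0.435), and Bcl2l1 by 0.89 and 0.82 (adjusted p = 0.605 and 0.553), none of which passed. Casp8, an initiator caspase of death receptors, averaged 7.22 ± 0.19 at 0.5% and 7.32 ± 0.32 at 1.0%, against 7.03 ± 0.13 in controls (SD, n = 6 each), and its difference of 0.29 at 1.0% had an adjusted p of 0.531 by limma. Casp9, the initiator caspase of the mitochondrial pathway, averaged 5.07 ± 0.37 at 0.5% and 5.22 ± 0.31 at 1.0%, against 5.45 ± 0.11 in controls (SD, n = 6 each), and its difference of -0.38 at 0.5% had an adjusted p of 0.632. Of CDK inhibitors 6 of 6 were measured, with 0 passing and 0 above the rest in all 4 livers. Of 11 GADD45 partners 9 were measured and 0 passed, and Map2k3 and Map2k4, kinases of the stress pathway, were above the rest in all 4 livers.

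Some genes of other lists were also high in all 4 livers apart. Glucocorticoid targets had 4 of 12 genes above the rest in all 4 (Fkbp5, Lpin1, Mt1 and Mt2), and IL-6 and NF-kB targets had 3 of 12 (Lcn2, Icam1 and Cebpd). Measured as deviation from each gene's median over the 24 livers, the median of the IL-6 and NF-kB list was 1.80 and 1.76 in 0.5% replicates 4 and 6, and 0.88 and 0.58 in 1.0% replicates 4 and 5. In 1.0% replicates 1, 2, 3 and 6, which did not stand apart, it was 0.46, 0.42, 0.325 and 0.06. The glucocorticoid list was at 1.85 and 1.61 in the 0.5% livers apart and at 0.82 and 0.42 in the 1.0% livers apart. Of livers that did not stand apart, 0.5% replicate 5 was at 0.705 and 1.0% replicate 3 at 0.389. Of 9 neutrophil markers, 3 were above the rest in all 4: S100a8, S100a9 and Lcn2, the last also counted in the IL-6 and NF-kB list. Against control 6 averaged higher and 3 lower at 0.5%, and 8 higher and 1 lower at 1.0%. Their list median was 0.47 in each liver apart and 0.82 in 1.0% replicate 3, which did not stand apart. Their summed level, which the brightest markers dominate, ran from 94.04 to 1486 at 0.5% and from 126.7 to 397.5 at 1.0%, against 73.64 to 105.5 in controls. Immediate early genes had 0 of 16 above the rest in all 4, with list medians of 1.73 and 1.23 in 0.5% replicates 4 and 6 and -0.06 and 0.01 in 1.0% replicates 4 and 5. Kupffer cell markers had 0 of 10 above the rest and lymphocyte markers 0 of 8, while of 9 hepatocyte markers Hnf4a and Fgb and of 7 cholangiocyte markers Krt19 were above. The summed level of 10 endothelial markers was 798.4 and 711.1 in 0.5% replicates 4 and 6 and 826.6 and 742.8 in 1.0% replicates 4 and 5, below the lowest of the other 20 livers at 858.1, and of these markers Fcgr2b was below the rest in all 4. Of 10 stellate cell markers Reln was below the rest in all 4, and their summed level in these livers, 826.5, 749.4, 810.1 and 876.7, overlapped with the other 20. Their part in the Cdkn1a, Trp53inp1 and Gadd45b levels was not tested.

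**Figure D4:**
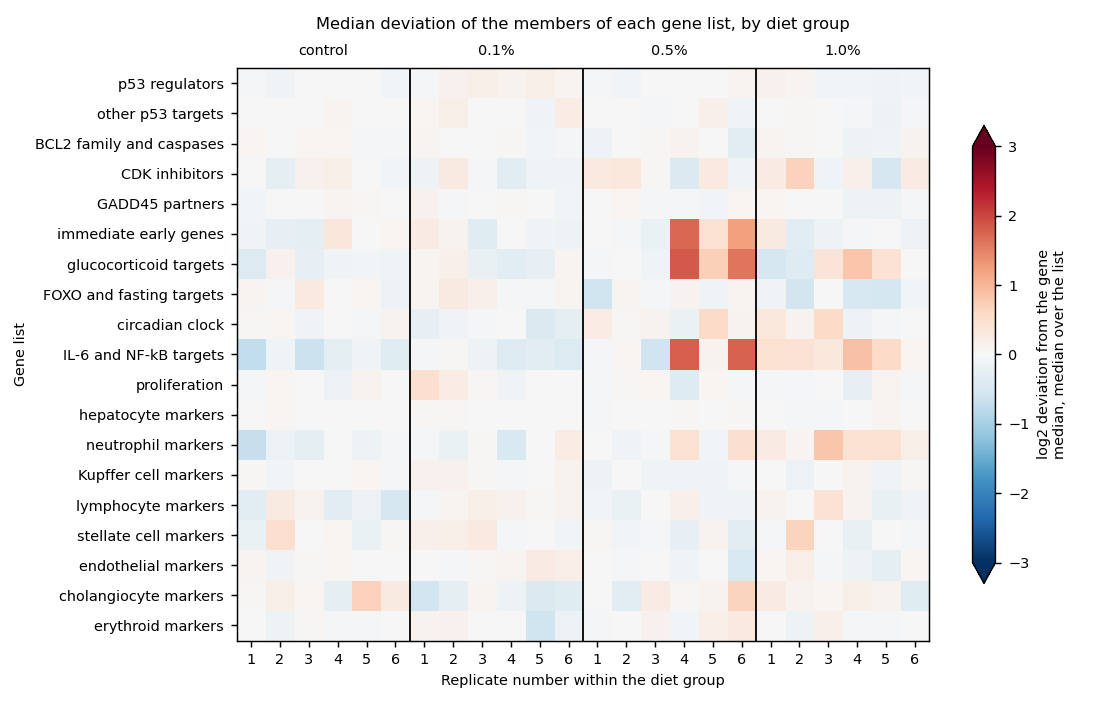
Median, over the genes of each list, of their deviation from their own median over the 24 livers, in log2 units, with livers as columns by diet group. The IL-6 and NF-kB and glucocorticoid lists are high in 0.5% replicates 4 and 6 and less so in 1.0% replicates 4 and 5. Some livers not apart are also raised, with the IL-6 and NF-kB list at 0.46, 0.42 and 0.325 in 1.0% replicates 1, 2 and 3. The other p53 targets stay between -0.14 and 0.16 in the 0.5% and 1.0% livers.

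Genes of other lists did pass between doses, where the 9 genes did not. The lists were chosen with earlier results of these data known, so these counts are a description. Over all arrays, none of the genes named in this paragraph passed against control at any dose. Of 15 circadian clock genes, 3 rose (Tef, Dbp and Nr1d2, activators and a repressor with daily rhythms) and 1 fell (Cry1, a core repressor) at 0.5% against 0.1%, where 0.214% of all genes passed, and the same 4 passed at 1.0% against 0.1%, where 0.253% of all genes passed. At 0.5% against 0.1% Tef passed under 7 of 10 other settings, Dbp under 8, Nr1d2 under 6 and Cry1 under 4, and without the 4 arrays apart Nr1d2 (adjusted p = 0.0841) and Cry1 (adjusted p = 0.217) did not pass. At 1.0% against 0.1% Dbp and Cry1 passed under 10 of 10 other settings, Tef under 9 and Nr1d2 under 8. In controls and at 0.1%, 0.5% and 1.0% Dbp averaged 6.625, 4.505, 7.562 and 8.467, and Cry1 4.547, 5.379, 4.474 and 4.112. Much of their gaps from 0.1% thus lay between 0.1% and control. Dbp differed by 3.06 at 0.5% and 3.96 at 1.0% against 0.1% (SE 0.58, adjusted p = 0.0303 and 0.00302 by limma). The glucocorticoid target Klf9 rose by 0.86 and 0.73 in the same comparisons (SE 0.12, adjusted p = 0.00236 and 0.00639), and passed under 9 and 7 of 10 other settings. Socs3, the feedback inhibitor of IL-6 signalling, rose by 2.30 at 1.0% against 0.1% (SE 0.47, adjusted p = 0.0371), with 0.0562 as its adjusted p without the 4 arrays apart. G6pc, a gluconeogenic enzyme gene, fell by 1.4 there (adjusted p = 0.0302, and 0.0191 without the 4 arrays apart). The time of killing was not used here, and the part of these lists in the Gadd45a and Bbc3 differences between doses was not tested.

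The genes whose levels were most like Sesn1 over the 24 arrays were Zc3h14 (r = 0.78 over 24, 0.61 over the other 20), Adcy6 (0.75 and 0.66), Osgep (0.74 and 0.54), Guk1 (0.73 and 0.68) and Micu2 (0.73 and 0.56). For Gadd45a they were Cnih2 (0.70 and 0.67), Dgat2 (0.70 and 0.75), Adtrp (0.68 and 0.63), 2810403D21Rik (0.68 and 0.63) and Gdap10 (0.67 and 0.74). These are rankings among 18193 genes and carry no p. The genes most like Cdkn1a, Trp53inp1 and Gadd45g were looked up after their values were seen. Slc25a51, a mitochondrial carrier gene, led for Cdkn1a at 0.92 over 24 and 0.63 over the other 20, Shb led for Trp53inp1 at 0.92 and 0.67, and Phlda1 for Gadd45g at 0.80 and 0.83. For Trp53inp1 the likeness of D10Wsu102e was 0.92 over 24 arrays and 0.08 over the other 20, so that ranking rested on the 4 livers apart.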

How the data were processed

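Liver RNA of 24 mice was measured on 1 Affymetrix array each. The authors deposited 1 table of linear intensity values for 45101 probe sets; per the labels' protocols, biotin-labelled cRNA was hybridized, and neither software nor background correction is given in the sources used here. log2(intensity + 1) was quantile-normalized over all probe sets and the brightest probe set taken for each of 18193 genes (932 probe sets with several symbols were left out and 9211 were not listed). Groups were fitted together in limma 3.58.1 (R 4.3.3) with eBayes, two-sided, Benjamini-Hochberg adjusted over all genes. The number of arrays limits the precision, and as the labels say no more than 1 mouse per array, p-values measure the spread between these mice. The fits took the mice of a diet as independent, although each cage held 3, so shared cages are not accounted for. Same-numbered arrays did not deviate together (r from -0.0641 to 0.111 over 36 pairs), so numbers do not pair samples. Named genes were the 10 members, up to 3 of each list with the smallest p among the 4 groups, and the 5 genes most like the 2 members with the smallest such p. The genes and lists were chosen with earlier results of these data known. Fits were tested on simulated data. Alternatives covered normalization, pseudocount, probe sets, filters, eBayes options, weights, samples and single arrays left out.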

Additional observations from a re-analysis of the deposited data

Results flagged for a closer look

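In 36 gene and diet groups of 6 livers, the gap of the highest or lowest liver to its neighbour, over the group's range, was compared with Dixon's 95% critical value, which chance passes in about 1 in 20 groups. It was passed in 2 groups, both by 0.5% replicate 1. Its Gadd45a level was 3.56, with the next at 4.77 (gap over range 0.647), and its Gadd45b level 1.69, with the next at 3.51 (0.648). Cdkn1a was also lowest there, at 1.28. The deposited intensities behind the Gadd45b and Cdkn1a levels were 2.29 and 1.47, below that array's median of 6.345, so both lay near the floor. The other Gadd45b probe sets were at 3.65 and 0.89 in this liver.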

How the results depend on the processing

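None of the 9 genes passed in any comparison under 10 other settings or with 1 array left out, and the lowest adjusted p of a member was 0.205, for 0.5% against 0.1%. Direction did depend on the setting. Under other settings 26 of 351 member differences from control and slopes changed sign, and with 1 array left out 28 of 864. Many of these values could not change, since eBayes options and arrays outside the groups compared do not move a difference. The shares thus understate how far direction depended on the setting. Differences between doses were not counted. Some of them changed sign too, such as Cdkn1a at 0.5% against 0.1%, 0.59 over all arrays and -0.90 without the 4 arrays apart. Averaging all probe sets gave Cdkn1a -0.0096, Ccng1 -0.0301 and Gadd45b -0.15 at 0.1%, Ccng1 -0.0035 and Gadd45b 0.38 at 0.5%, Mdm2 0.13, Ccng1 -0.0714, Gadd45b 0.12 and Sesn1 0.14 at 1.0%, and slopes of 0.0361 for Mdm2, 0.25 for Gadd45b and 0.24 for Sesn1. Without the 4 arrays apart, Cdkn1a was -0.34, Bbc3 0.0108 and Trp53inp1 -0.0184 at 0.5%, Sesn1 0.02175 at 1.0%, and slopes were -0.13 for Cdkn1a, 0.17 for Ccng1, 0.20 for Bbc3, 0.05118 for Sesn1 and -0.0117 for Trp53inp1. Without normalization, Gadd45b was 0.0466 at 0.5% and the Ccng1 slope 0.0304, with the median of all genes shifted by 0.11, 0.15 and 0.05 at the 3 doses; centring on medians gave Ccng1 -0.04455 at 1.0%, a pseudocount of 16 gave Gadd45b 0.0113 at 0.5%, and array weights a Ccng1 slope of 0.0437. The cause of these changes was not tested.

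With 1 array left out, values ran from -0.0743 to 0.24 for Bbc3, -0.0238 to 0.0911 for Ccng1, -0.22 to 0.28 for Gadd45a, -0.23 to 0.0582 for Gadd45b and -0.25 to 0.0365 for Mdm2 at 1.0%, from -0.27 to 0.29 for Gadd45b at 0.5% and from -0.0035 to 0.77 for Gadd45g at 0.1%. Slopes ran from -0.21 to 0.0162 for Bbc3, -0.0443 to 0.0667 for Ccng1 and -0.10 to 0.00944 for Sesn1.

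All genes passing numbered 3 at 0.5% and 4 at 1.0% against control, 39 for 0.5% and 46 for 1.0% against 0.1%, 4 for 1.0% against 0.5%, 33 for any difference and 18 for the slope. In that order these were 5, 0, 21, 6, 0, 4 and 0 without normalization. Centring gave 7 at 0.5% and 2 at 1.0% against control, 20 for 1.0% against 0.1% and 1 for 1.0% against 0.5%. A pseudocount of 16 gave 100 and 111 against 0.1%, 97 for any difference and 103 for the slope; only genes brighter than the median gave 90, 115, 70 and 111, and eBayes with trend and robust 91, 91, 86 and 85, with 2 for 1.0% against 0.5%. Averaging probe sets gave 7 at 1.0% against control, 21 for 0.5% against 0.1% and 1 for 1.0% against 0.5%, and array weights 6 at 0.5% against control and 0 for 1.0% against 0.5%. Fits of 2 groups gave 0, 1, 7, 10 and 0 in the first 5 comparisons. The replicate number as a block, which does not pair the samples, gave 0 at 0.5% against control, 21 for 0.5% against 0.1% and 0 for 1.0% against 0.5%, and 4 of 24 arrays correlated best with their own number. Without the 4 arrays apart there were 1 and 0 against control, 10 for 0.5% against 0.1% and 0 for 1.0% against 0.5%. With 1 array left out, counts ran from 0 to 1, 0 to 6 and 4 to 7 against control at the 3 doses, 4 to 59 and 18 to 62 against 0.1%, 0 to 8 for 1.0% against 0.5%, 17 to 49 for any difference and 4 to 61 for the slope.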
